A study of Homo sapiens with 32 samples.

Results

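The cornified envelope is the cross-linked protein shell that a squamous cell builds under its plasma membrane in the last steps of its life. The transcripts described here encode its scaffold and the enzymes that fix it: involucrin (IVL), loricrin (LORICRIN), corneodesmosin (CDSN), the C1orf68 product, transglutaminases 1 and 3 (TGM1, TGM3), periplakin (PPL), envoplakin (EVPL), suprabasin (SBSN) and cornifelin (CNFN). These 10 genes were chosen by symbol, all 10 were found, and they were 10 of 19345 symbols in the expression table. All 10 passed a filter of 1 TPM or more in at least 6 libraries, which 12221 symbols passed.

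The cells were EPC2, a wild-type human esophageal epithelial line immortalised with hTERT, so every library came from 1 line. Monolayer cells were taken at day 0, before seeding (10 libraries). Each spheroid culture began as 40000 cells in 20 µl of Matrigel. Its serum-free keratinocyte medium held CaCl2 at 0.6 mM and, up to day 3, Y27632 at 10 µM. They were taken at day 3 (D3, 9 libraries), at day 11 without cytokine (untreated D11, 7 libraries), and at day 11 after 20 ng/ml interleukin 13 (IL-13) from day 3 onward (D11 with IL-13, 6 libraries). Spheroids of all 3 spheroid groups therefore shared the calcium, the Matrigel and the early Y27632, none of which is given for the monolayer. The labels give 2 independent experiments as batches, and within an experiment nothing says whether libraries came from separate cultures, so p-values measure the spread between these libraries. The comparisons asked how the transcripts differed between flat cells and young spheroids, between young and mature spheroids, and between mature spheroids with and without the cytokine.

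In stratified squamous epithelium the envelope is assembled from the inside of the membrane. Envoplakin and periplakin, large plakin proteins that bind desmosomes and keratin filaments, are laid down first with involucrin, a glutamine-rich rod that serves as the early cross-linking partner. Transglutaminase 1, an enzyme anchored in the membrane, joins these proteins by isopeptide bonds that depend on calcium. Transglutaminase 3 is a cytosolic enzyme that becomes active after cleavage by a cathepsin and cross-links later precursors. Loricrin, a glycine-rich protein that makes up much of the epidermal envelope, and small proline-rich proteins are added as reinforcement. Corneodesmosin is the extracellular glue of the desmosomes that hold cornified cells together, suprabasin is a secreted protein of suprabasal layers, and cornifelin is a small cysteine-rich envelope protein. The esophagus of humans is lined by a squamous epithelium that does not normally form a cornified layer, and IL-13 is the type 2 cytokine studied in allergic inflammation of this organ.

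In the coordinates of GENCODE release 29 on hg38, the genes were spread over 7 chromosomes. IVL (chr1:152908545-152911886, plus strand), C1orf68 (chr1:152719522-152720470, plus strand) and LORICRIN (chr1:153259700-153262122, plus strand) lay in the epidermal differentiation complex, a cluster that also holds the small proline-rich and late cornified envelope genes. CDSN was at chr6:31115090-31120446 (minus strand), TGM1 at chr14:24249114-24264432 (minus strand) and TGM3 at chr20:2296001-2341078 (plus strand). PPL was at chr16:4882507-4960741, EVPL at chr17:76004502-76027452, SBSN at chr19:35523367-35528351 and CNFN at chr19:42387019-42390287, all on the minus strand.

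RefSeq start sites (GRCh38.p14) were matched for 7 of the 10 genes, C1orf68 under its current symbol KPLCE, and TGM1, PPL and EVPL were not matched. Windows of 250 bases before the start were searched on both strands for letters bound by AP-1 (TGANTCA), for TATAAA, for CACCC (a Krüppel-like factor box), for AACCNGTT (a grainyhead box) and for TTC and GAA parted by 4 bases of any kind (a STAT6-type site). The 5 windows shown are those with an AP-1 or a STAT6-type match. All 10 members rose with maturation, among them CDSN and CNFN, whose windows held neither. With IL-13, TGM3 moved opposite to IVL, LORICRIN and C1orf68, and C1orf68 shares the STAT6-type letters with TGM3. A link between the letters and the levels was not tested. They are printed 5′ to 3′ on the gene's strand, capitals mark every match to these letters, and bases that GENCODE places inside the gene were left out (1 of IVL and 40 of SBSN).
IVL (chr1:152908296-152908544, plus strand): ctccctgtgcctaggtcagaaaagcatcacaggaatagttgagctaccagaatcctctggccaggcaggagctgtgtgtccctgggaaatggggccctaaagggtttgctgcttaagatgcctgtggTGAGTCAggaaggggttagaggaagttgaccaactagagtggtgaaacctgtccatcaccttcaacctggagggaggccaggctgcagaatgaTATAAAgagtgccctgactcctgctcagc
LORICRIN (chr1:153259437-153259686, plus strand): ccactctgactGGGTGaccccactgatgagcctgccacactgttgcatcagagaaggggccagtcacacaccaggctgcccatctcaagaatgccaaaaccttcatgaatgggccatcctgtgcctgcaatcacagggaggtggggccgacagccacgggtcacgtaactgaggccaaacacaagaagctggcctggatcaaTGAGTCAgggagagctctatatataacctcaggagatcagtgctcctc
SBSN (chr19:35528352-35528561, minus strand): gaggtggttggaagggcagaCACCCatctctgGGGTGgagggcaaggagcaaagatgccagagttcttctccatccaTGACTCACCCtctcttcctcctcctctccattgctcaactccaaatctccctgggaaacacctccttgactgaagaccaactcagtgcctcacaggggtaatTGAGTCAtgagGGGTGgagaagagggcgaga
TGM3 (chr20:2295751-2296000, plus strand): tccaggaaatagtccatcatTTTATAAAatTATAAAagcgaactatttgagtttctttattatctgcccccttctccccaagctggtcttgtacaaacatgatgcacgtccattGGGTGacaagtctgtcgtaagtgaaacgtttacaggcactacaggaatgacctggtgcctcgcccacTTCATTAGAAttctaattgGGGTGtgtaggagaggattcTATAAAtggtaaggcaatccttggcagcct
C1orf68 (chr1:152719272-152719521, plus strand): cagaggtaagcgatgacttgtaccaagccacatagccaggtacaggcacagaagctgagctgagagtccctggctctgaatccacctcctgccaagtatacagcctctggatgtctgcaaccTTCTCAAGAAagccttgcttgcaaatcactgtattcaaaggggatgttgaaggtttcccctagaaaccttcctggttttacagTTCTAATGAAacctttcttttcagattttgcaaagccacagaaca

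AP-1 letters were found in 3 of the 7 windows, against 6.57% of 35116 RefSeq windows of this length. Counted from the RefSeq start, the matches were at -123 to -117 in IVL, at -48 to -42 in LORICRIN, and at -173 to -167 and -71 to -65 in SBSN. The STAT6-type letters were found in TGM3, at -69 to -60, and in C1orf68, at -128 to -119 and -45 to -36, against 5.38% of windows. TATAAA was at -30 to -25 in both IVL and TGM3, which held 3 more matches of which 2 overlap, against 10.7% of windows. CACCC was in 5 of 7 windows, those of LORICRIN, CDSN, TGM3, SBSN and CNFN, against 54.7%, and 1 match in SBSN shares bases with an AP-1 match. AACCNGTT was in 0 of 7, against 1.49%. A match is a description of these letters and says nothing of binding.

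Values are TPM, a share of each library's total corrected for transcript length, so levels can be set against each other between genes. TPM keeps no depth, so no counting interval is given. A value at or near 0 can be a failed estimate. The proteasome subunit PSMA1 was listed at 0 in 21 libraries and reached 0.1 TPM at most. Comparisons of levels between genes carry this limit. Libraries within a group correlated at r = 0.952 to 0.995 across genes. Keratins and other squamous markers were abundant in all groups, at a summed 19138.8 to 84384.9 TPM over 8 genes. Markers of other cell types were few: 14 of 20 columnar, goblet and ciliated markers, 10 of 12 fibroblast markers and 12 of 15 immune and endothelial markers were under 1 TPM in every library, PTPRC and PECAM1 among them. The summed levels of these lists differed between groups and are given in the order monolayer, D3, untreated D11 and IL-13. The fibroblast list, led by COL1A1, summed to 6.6 to 14.9, 8.6 to 31.1, 58.9 to 79.0 and 27.6 to 49.0 TPM. The immune and endothelial list, led by CD68, summed to 195.5 to 284.6, 221.5 to 267.1, 521.6 to 587.4 and 435.4 to 559.3 TPM, and the columnar list, led by KRT19, to 2061.2 to 4029.9, 1962.3 to 3411.2, 757.9 to 1013.0 and 872.7 to 1018.9 TPM. Their part in the results was not tested. The summed level of the 6 proliferation genes was 269.4 to 678.5, 184.0 to 397.3, 17.9 to 32.6 and 23.6 to 71.9 TPM in the same order. The summed level of the 8 IL-13 response genes, a check of the treatment, was 412.7 to 932.4 TPM with IL-13 and 82.6 to 102.3 TPM without. Mitochondrially encoded transcripts took 44.8 to 50.1% of TPM in monolayers, 39.1 to 57.1% at D3, 14.8 to 27.9% in untreated D11 and 13.2 to 25.6% with IL-13, and removing them is among the alternatives below.

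**Figure D1:**
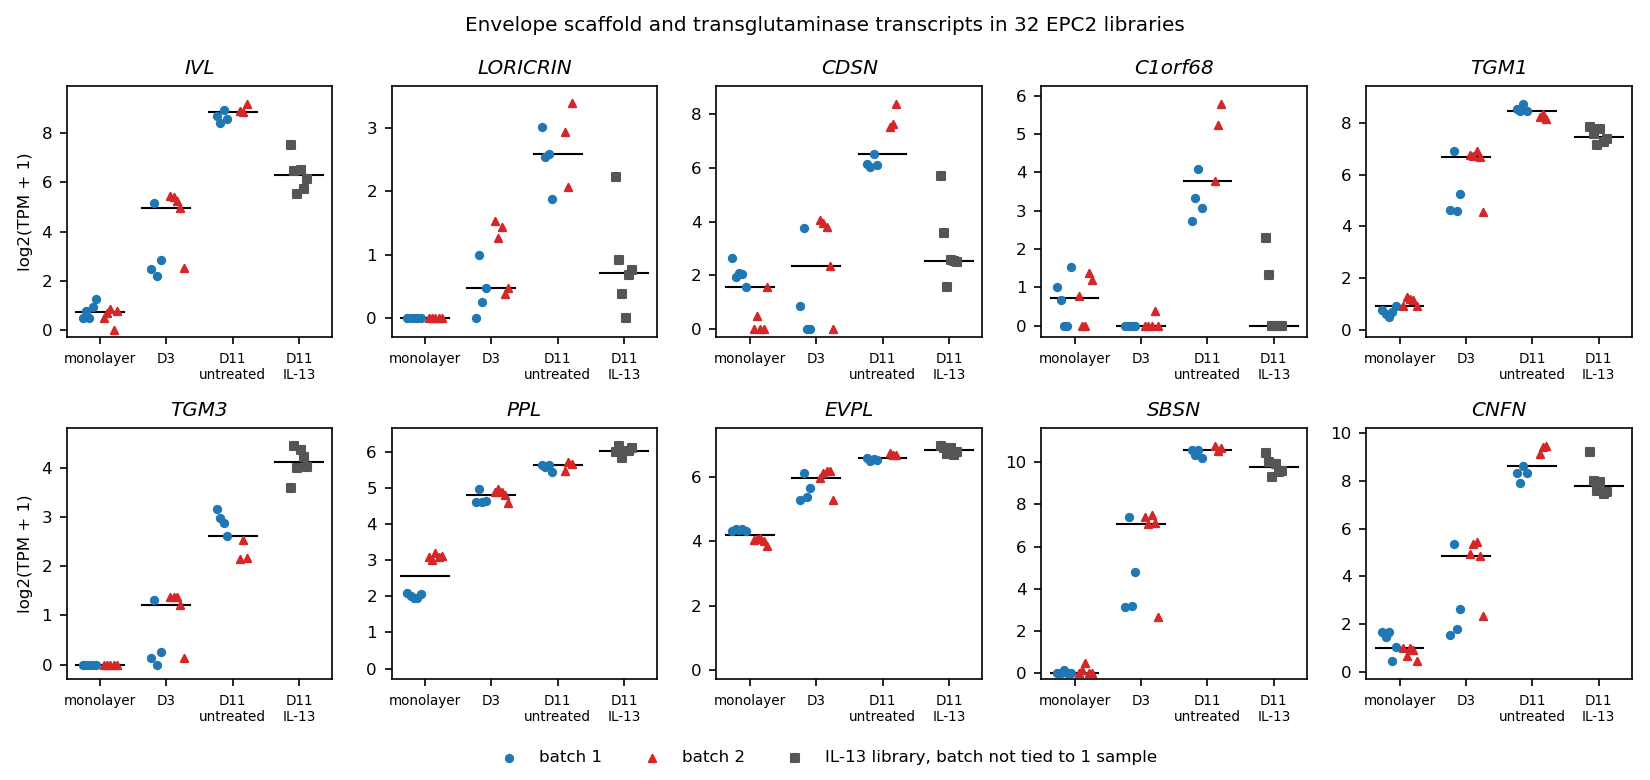
Level of each of the 10 transcripts in each of the 32 libraries, as log2(TPM + 1), with 1 panel per gene, circles for batch 1, triangles for batch 2, squares for IL-13 libraries and a bar at the group median. All 10 genes have all 7 untreated D11 libraries above every D3 and every monolayer library, and only TGM3 and PPL have all 6 IL-13 libraries above the untreated ones.

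Together the 10 transcripts took 0.00261 to 0.00321% of TPM in the monolayer, 0.00987 to 0.0496% at D3, 0.244 to 0.377% in untreated D11 spheroids and 0.119 to 0.263% with IL-13. SBSN was 43.8 to 53.7% of that sum in untreated D11 libraries and 52.0 to 57.4% with IL-13. In bulk RNA, fewer cells that make a transcript and less of it per cell cannot be told apart.

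In the monolayer, EVPL was the most abundant of the 10. It ranged from 13.5 to 20.1 TPM (median 17.6, n = 10) and lay above PPL, its plakin partner, at 2.9 to 8.3 TPM (median 5.2). CDSN (0 to 5.3), CNFN (0.4 to 2.2), TGM1 (0.4 to 1.4), IVL (0 to 1.4) and C1orf68 (0 to 1.9 TPM) followed with ranges that overlap. SBSN was listed at 0 in 7 of 10 libraries and reached 0.4 TPM, and LORICRIN and TGM3 were listed at 0 in all 10. Flat cells thus held transcripts of the plakin scaffold, and the other 8 members were at 5.3 TPM or less. Only EVPL stood apart in both batches. In batch 1 PPL, at 2.9 to 3.3 TPM, lay within the range of CDSN, at 2.0 to 5.3 TPM. In batch 2 it lay above CDSN, at 7.1 to 8.3 against 0 to 2.0 TPM.

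At D3 the order by median was SBSN, TGM1, EVPL, IVL, CNFN, PPL, CDSN, TGM3, LORICRIN and C1orf68. Neighbours in this order overlapped in range except PPL, at 23.2 to 30.7 TPM, and CDSN, at 0 to 15.8 TPM. SBSN, IVL and CNFN also had libraries within the range of CDSN. In untreated D11 spheroids SBSN stood above all others, followed by median by IVL, CNFN, TGM1, EVPL, CDSN, PPL, C1orf68, TGM3 and LORICRIN. Neighbours in this order did not overlap between SBSN and IVL, between TGM1 and EVPL, and between CDSN and PPL, although the highest CDSN library lay within the ranges of CNFN and TGM1.

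Between monolayer and D3, limma called 8 of the 10 members higher and 0 lower, against 12.7% of all genes tested higher and 68.2% lower. Their libraries did not overlap for 5 members, all higher (IVL, TGM1, PPL, EVPL and SBSN), against 5.29% of genes higher and 39.0% lower. The median change of all 10 members was 1.91 on the log2(TPM + 1) scale, against -0.44 for all genes. Over the 8 members above 0 in the monolayer it was 2.46. After median-of-ratios scaling the median of all genes was -0.0052 and 4064 genes were higher and 4052 lower, where the deposited scale gave 1556 and 8339. The 8 calls held under that scaling.

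TGM1, the membrane-anchored cross-linking enzyme, went from 0.4 to 1.4 TPM (median 0.9) in the monolayer to 22.4 to 119.5 TPM (median 102.6, n = 9) at D3. The log2 change was 4.98 ± 0.26 (SE), with a limma adjusted p of 7.1e-17. The lowest D3 library lay far above the highest monolayer library.

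The plakins, which had the highest medians of the 10 over all monolayer libraries, rose with the smallest errors. PPL reached 23.2 to 30.7 TPM (median 27.4), a log2 change of 2.20 ± 0.12 with a limma adjusted p of 1.1e-16. EVPL reached 38.4 to 72.1 TPM (median 61.5), a change of 1.62 ± 0.11 with a limma adjusted p of 5.9e-14. For neither gene did a D3 library overlap the monolayer.

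IVL, the early precursor, reached 3.6 to 43.0 TPM (median 30.2), a log2 change of 3.33 ± 0.37 with a limma adjusted p of 1.5e-09. SBSN, the secreted suprabasal protein, reached 5.4 to 182 TPM (median 133.7) with a change of 5.47 ± 0.49 and a limma adjusted p of 1.8e-11. CNFN reached 1.9 to 42.0 TPM (median 27.7) with a change of 2.72 ± 0.42 and a limma adjusted p of 9.0e-07. The lowest CNFN library at D3 lay below the highest monolayer library, so these ranges overlap.

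The other 4 members were low at D3. TGM3 was 0 to 1.6 TPM (median 1.3) and LORICRIN 0 to 1.9 TPM (median 0.4), both called higher than a monolayer listed at 0 (limma adjusted p of 2.2e-04 and 0.0025), and no fold is given. CDSN was 0 to 15.8 TPM (median 4.1) against 0 to 5.3 TPM, a change of 0.82 ± 0.60 that did not pass (limma adjusted p of 0.21). C1orf68 was listed at 0 in 8 of 9 D3 libraries, against 4 of 10 in the monolayer, and did not pass either (-0.64 ± 0.32, limma adjusted p of 0.068). For C1orf68 the call turned on settings: it was lower with a pseudocount of 0.1 (-1.96, limma adjusted p of 0.014) or without monolayer library 6 (-0.75, limma adjusted p of 0.037) or 8 (-0.75, limma adjusted p of 0.037).

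The D3 libraries were not alike. IVL was 30.2 to 43.0 TPM in libraries 1, 3, 4, 5 and 6 and 3.6 to 6.1 TPM in libraries 2, 7, 8 and 9. SBSN was 133.7 to 182 TPM in the first 5 and 5.4 to 26.3 TPM in the other 4, and TGM1 was 102.6 to 119.5 TPM against 22.4 to 36.6 TPM. The plakins showed a smaller gap, EVPL at 61.5 to 72.1 against 38.4 to 49.7 TPM and PPL at 27.4 to 30.7 against 23.2 to 24.2 TPM. In the same libraries mitochondrial transcripts took 39.1 to 45.8% and 53.1 to 57.1% of TPM. Of the 5 high libraries, 1, 3, 5 and 6 belong to batch 2 and 4 to batch 1, and of the 4 low ones only 7 belongs to batch 2, so the split follows the batches except for libraries 4 and 7. Without those 2 libraries the counts stayed at 8 higher and 0 lower.

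Within batch 1 alone limma called 6 members higher, and within batch 2 alone 9. TGM3 and LORICRIN were lost in batch 1 (limma adjusted p of 0.079 and 0.069). CDSN was -0.91 (limma adjusted p of 0.18) in batch 1 and 2.42 (limma adjusted p of 0.0045) in batch 2, and the difference between the batches itself passed, at 3.33 ± 0.95 (limma adjusted p of 0.0067). The exon bases of CDSN overlap those of PSORS1C1 on the opposite strand over 93.8% of their length. The handling of strand is not given, so whether reads of this pair were told apart is unknown at every stage. PSORS1C1 itself was 1.7 to 12.6 TPM in the monolayer, 2.1 to 6.9 at D3, 8.5 to 12.5 in untreated D11 and 4.9 to 8.5 TPM with IL-13.

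**Figure D2:**
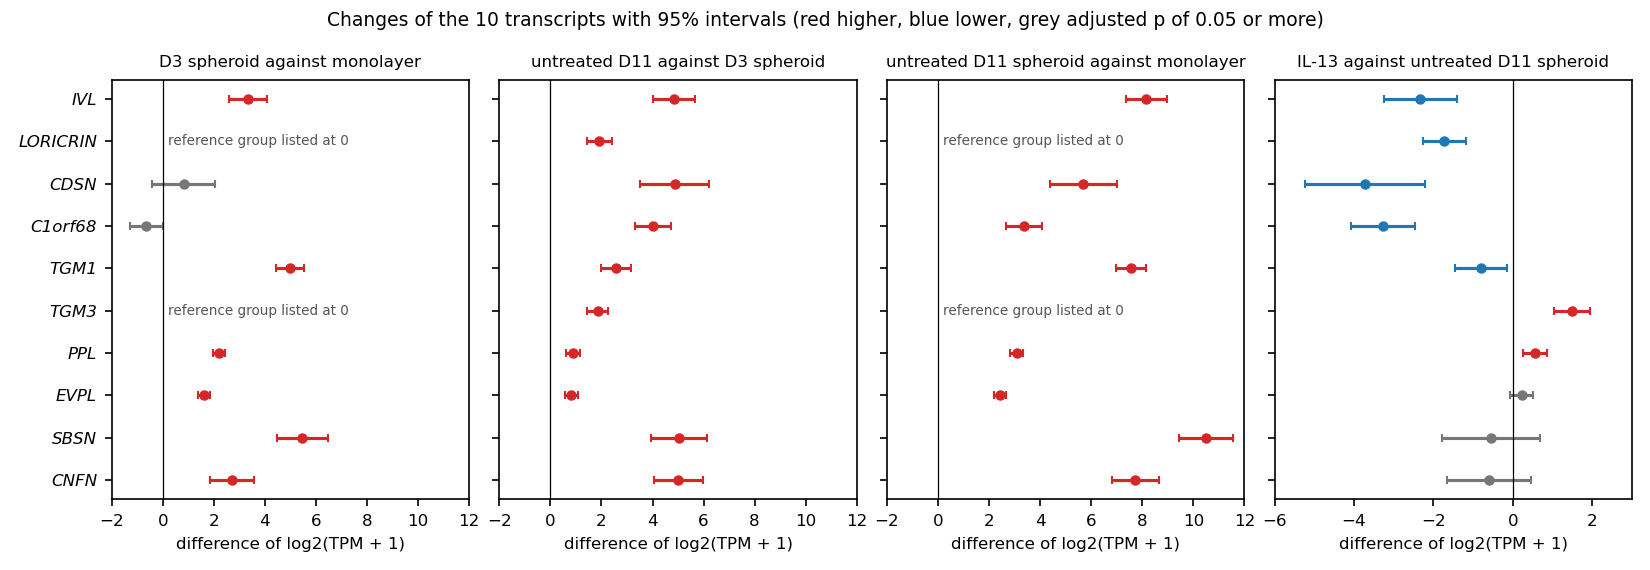
Log2 change of each of the 10 transcripts in the 4 comparisons, as a difference of log2(TPM + 1) from limma with its 95% interval, red where higher, blue where lower and grey where the adjusted p was 0.05 or more. Between D3 and untreated D11 all 10 intervals lie above 0, and with IL-13 they run from -3.73 for CDSN to 1.48 for TGM3.

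From D3 to untreated D11, limma called all 10 members higher, against 33.6% of all genes tested higher and 35.8% lower. Libraries did not overlap for any of the 10, against 19.1% of genes higher and 19.0% lower. The median change of the members was 3.30 on the log2 scale, against -0.024 for all genes. All 10 were also higher in batch 1 alone and in batch 2 alone. With the mitochondrial genes removed and the rest rescaled, the split of all genes moved from 4102 higher and 4370 lower to 1663 and 8018, with a median of -0.51. Under that scaling 9 of the 10 members remained called, and PPL did not (0.30, limma adjusted p of 0.086).

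The early scaffold and its enzyme kept climbing. IVL reached 335.5 to 578.5 TPM (median 465.9, n = 7), a log2 change of 4.82 ± 0.40 with a limma adjusted p of 7.2e-12. TGM1 reached 286.6 to 425.0 TPM (median 352.3), a change of 2.58 ± 0.29 with a limma adjusted p of 3.7e-09. For both genes the lowest untreated D11 library lay well above the highest D3 library, at 335.5 against 43.0 TPM for IVL and 286.6 against 119.5 TPM for TGM1.

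The plakins changed least of the 10. EVPL was 89.4 to 106.9 TPM (median 96.0), a change of 0.82 ± 0.12 with a limma adjusted p of 8.6e-07. PPL was 43.1 to 51.7 TPM (median 48.8), a change of 0.88 ± 0.13 with a limma adjusted p of 6.3e-07. Over the alternative settings the change of EVPL ran from 0.23 to 1.01 and stayed called. That of PPL ran from 0.30 to 1.45. The ratio of IVL to EVPL, the precursor against its plakin partner, moved from 0.0885 to 0.699 at D3 to 3.75 to 5.61 in untreated D11, with no overlap. The ratio of EVPL to PPL was 1.63 to 2.63 at D3 and 1.88 to 2.45 in untreated D11, where the ranges overlap.

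SBSN, already first of the 10 by median at D3, reached 1175.9 to 1734.4 TPM (median 1532.8) and now lay above all others. Its log2 change was 5.03 ± 0.54 with a limma adjusted p of 1.4e-09. CNFN reached 242.5 to 699.1 TPM (median 389.3), a change of 5.01 ± 0.47 with a limma adjusted p of 7.0e-11. CNFN was 242.5 to 389.3 TPM in batch 1 and 548.9 to 699.1 TPM in batch 2, so the batches did not overlap at this time.

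CDSN and C1orf68, neither of which was called higher at D3, were called higher at day 11. CDSN reached 64.4 to 331.5 TPM (median 90.2), a log2 change of 4.87 ± 0.66 with a limma adjusted p of 1.4e-07. It was 64.4 to 90.2 TPM in batch 1 and 181.8 to 331.5 TPM in batch 2, again with no overlap. C1orf68, named KPLCE for its likeness to KPRP and the late cornified envelope proteins, reached 5.6 to 54.3 TPM (median 12.8), a change of 4.02 ± 0.35 with a limma adjusted p of 2.3e-11. Its change was larger in batch 2 by 1.56 ± 0.55 (limma adjusted p of 0.042).

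LORICRIN and TGM3 had the lowest medians of the 10 in untreated D11. LORICRIN was 2.7 to 9.5 TPM (median 5.0), a change of 1.91 ± 0.24 with a limma adjusted p of 2.9e-08. TGM3 was 3.4 to 7.9 TPM (median 5.1), a change of 1.85 ± 0.20 with a limma adjusted p of 1.8e-09. The transcript of loricrin, a leading envelope protein of skin, was thus listed at a low level in mature EPC2 spheroids. Its median was 5.0 TPM where that of IVL was 465.9 TPM. The change of TGM3 was smaller in batch 2, by -1.29 ± 0.34 (limma adjusted p of 0.0090).

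Over the whole course, from monolayer to untreated D11, all 10 members were called higher, against 21.0% of genes higher and 63.5% lower. All 10 had libraries that did not overlap, against 13.4% of genes higher and 45.3% lower. This comparison shares its libraries with both steps above. SBSN had the largest change at 10.50, followed by IVL at 8.15, CNFN at 7.73 and TGM1 at 7.56. CDSN followed at 5.69, C1orf68 at 3.38, PPL at 3.07 and EVPL at 2.44 on the log2 scale. The median of these 8 was 6.63, and LORICRIN and TGM3 had a monolayer listed at 0. Over all 10 members the median was 4.54, against -0.48 for all genes. After median-of-ratios scaling 4916 genes were higher and 4902 lower, where the deposited scale gave 2561 and 7765.

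PPL differed between the 2 experiments before any spheroid was grown. It was 2.9 to 3.3 TPM in the 5 monolayer libraries of batch 1 and 7.1 to 8.3 TPM in the 5 of batch 2. EVPL went the other way, at 19.1 to 20.1 TPM in batch 1 and 13.5 to 16.1 TPM in batch 2. In neither gene did the batches overlap. The change of PPL to D3 was smaller in batch 2 by -0.97 ± 0.11, and that to untreated D11 by -1.05 ± 0.12 (limma adjusted p of 3.5e-07 and 1.9e-07). The ratio of EVPL to PPL was therefore 5.82 to 6.93 in batch 1 and 1.75 to 2.25 in batch 2 of the monolayer.

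**Figure D3:**
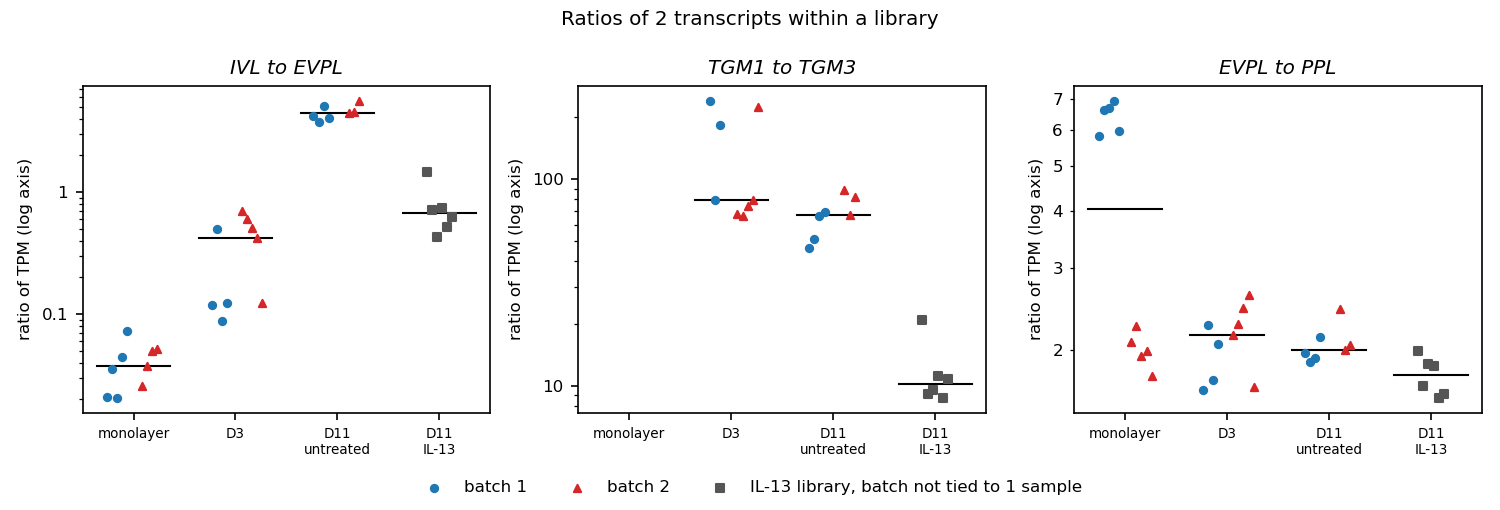
Ratios of TPM within each library on log axes, for IVL to EVPL, TGM1 to TGM3 and EVPL to PPL, with circles for batch 1, triangles for batch 2, squares for IL-13 libraries and a bar at the median of the libraries drawn (those with a 0 are left out). The ratio of TGM1 to TGM3 is 46.6 to 88.7 in untreated D11 libraries and 8.77 to 20.8 with IL-13, and the ratio of EVPL to PPL in the monolayer splits by batch.

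IL-13 moved the members in different directions. Of the 10, limma called 2 higher (TGM3 and PPL) and 5 lower (IVL, LORICRIN, CDSN, C1orf68 and TGM1), and 3 did not pass (EVPL, SBSN and CNFN). Of all genes tested 39.2% were called higher and 8.49% lower. Libraries did not overlap for 6 members, of which TGM3 and PPL were higher, against 9.66% of genes, and IVL, CDSN, C1orf68 and TGM1 were lower, against 4.03%. The median change of the members was -0.70 on the log2 scale, against 0.19 for all genes. Median-of-ratios scaling set the median of all genes to 0.0010 and their split to 2362 higher and 2515 lower, from 4785 and 1037, and under it the 5 lower calls and TGM3 held while PPL did not pass.

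The labels put 1 of the 6 IL-13 samples in batch 2, and the IL-13 columns could not be tied to single samples, so each carried the batch share of its group. Changes given below against the untreated libraries of 1 batch used all 6 IL-13 libraries and no batch term. Since 5 IL-13 samples were of batch 1, the changes against batch 2 were mostly across batches and include any gap between batches. IL-13 library 1 stood apart: it was the highest of the 6 for 8 members and the lowest for TGM3, with PPL within the range of the others. Without library 1 the counts stayed at 2 higher and 5 lower, and the log2 changes were -0.88 for TGM1, 1.59 for TGM3, 0.57 for PPL, 0.19 for EVPL, -3.61 for C1orf68, -0.68 for SBSN and -0.85 for CNFN. Those of IVL, CDSN and LORICRIN without it stand with each gene.

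TGM3, the later cross-linking enzyme, was 11.0, 20.9, 14.9, 19.6, 17.6 and 15.2 TPM in IL-13 libraries 1 to 6. In the untreated spheroids it was 7.9, 6.9, 6.4, 3.4, 5.1, 4.8 and 3.5 TPM. Every treated library exceeded every untreated one. This was a log2 change of 1.48 ± 0.22, with a limma adjusted p of 4.2e-06. It was 1.27 after median-of-ratios scaling, and 1.20 against the untreated libraries of batch 1 and 1.82 against those of batch 2, a split by batch that was chosen after the data were seen.

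TGM1 moved the other way. It was 142.6 to 228.4 TPM (median 177.7, n = 6) with IL-13 and 286.6 to 425.0 TPM (median 352.3, n = 7) without, with no overlap. The log2 change of -0.81 ± 0.32 was near the threshold, with a limma adjusted p of 0.040, and it was no longer called without any 1 of untreated libraries 1, 2, 3 or 5 or IL-13 libraries 2, 3, 5 or 6 (-0.82 to -0.71, limma adjusted p of 0.054 to 0.086). The fit shares its spread with the D3 libraries, in which TGM1 was wide. Against the untreated libraries of batch 1 alone, without any D3 library, the change was -1.05 ± 0.14 (limma adjusted p of 3.8e-04), and against those of batch 2 it was -0.74 ± 0.15 (limma adjusted p of 0.0049).

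TGM1 was still the most abundant transglutaminase with IL-13, at 8.77 to 20.8 times the level of TGM3, where the untreated ratio was 46.6 to 88.7. Of the summed TPM of the transglutaminase family, TGM3 took 4.48 to 9.83% with IL-13 and 1.06 to 2.02% without. The sum itself was 164.6 to 245.8 TPM with IL-13 and 303.5 to 450.6 TPM without. TGM2, the widely expressed tissue transglutaminase, was 4.1 to 5.9 TPM with IL-13 and 7.7 to 12.7 TPM without, a log2 change of -0.88 ± 0.11 with a limma adjusted p of 8.6e-08. TGM5, another epidermal cross-linking enzyme, was 1.1 to 2.1 TPM against 4.2 to 6.2 TPM, a change of -1.26 ± 0.13 with a limma adjusted p of 5.1e-09. TGM3 was thus the only 1 of the 4 tested transglutaminases that was called higher, and the other 3 were called lower.

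**Figure D4:**
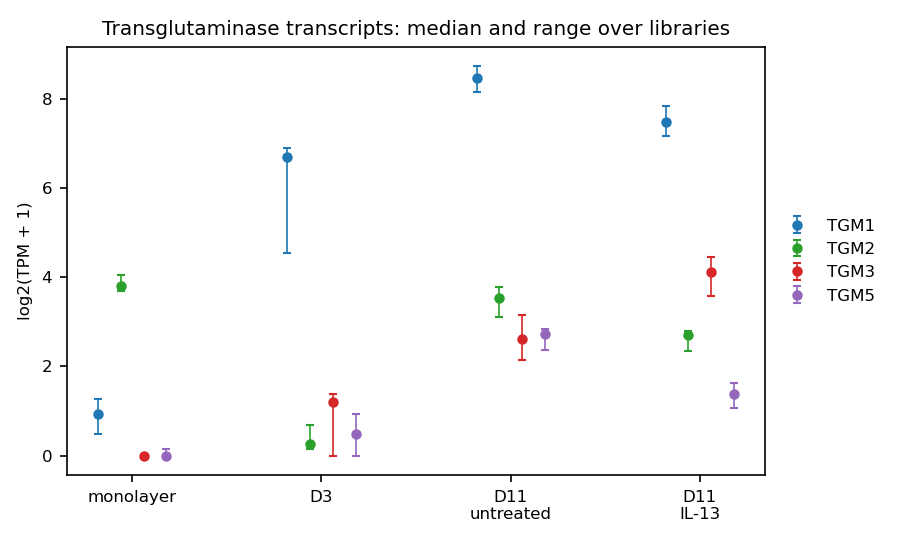
Median and range over libraries of TGM1, TGM2, TGM3 and TGM5 in the 4 groups, as log2(TPM + 1). TGM2 leads in the monolayer at 12.0 to 15.6 TPM and is near 0 at D3, TGM1 leads in all 3 spheroid groups, and TGM3 is the only gene of the 4 that is higher with IL-13.

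The enzyme that led the family changed between monolayer and spheroid. TGM2 was 89.1 to 95.9% of the summed transglutaminase TPM in the monolayer, where TGM1 was 2.63 to 10.1%. At D3 TGM1 was 97.5 to 99.6%. TGM2 went from 12.0 to 15.6 TPM in the monolayer to 0.1 to 0.6 TPM at D3, a log2 change of -3.46 ± 0.086 with a limma adjusted p of 4.9e-25, and was back at 7.7 to 12.7 TPM in untreated D11. TGM4, TGM6, TGM7, F13A1 and EPB42 were at or under 0.2 TPM in every library and were not tested.

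IVL was 184.2, 85.9, 45.2, 89.5, 52.5 and 68.4 TPM in IL-13 libraries 1 to 6, against 335.5 to 578.5 TPM in untreated D11. No treated library reached the untreated range, and the lowest lay just above the highest D3 library, at 43.0 TPM. The log2 change was -2.33 ± 0.45 with a limma adjusted p of 1.2e-04, and -2.58 without IL-13 library 1. It was -2.33 against the untreated libraries of batch 1 and -2.67 against those of batch 2. The ratio of IVL to EVPL was 0.430 to 1.47 with IL-13, against 3.75 to 5.61 without.

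CDSN fell furthest of the 10. It was 50.7, 11.1, 2.0, 4.9, 4.8 and 4.7 TPM in IL-13 libraries 1 to 6 and 64.4 to 331.5 TPM in untreated D11, with no overlap. The log2 change was -3.73 ± 0.74 with a limma adjusted p of 1.6e-04, and -4.25 without library 1. The level in libraries 2 to 6 lay within the D3 range of 0 to 15.8 TPM. PSORS1C1, the overlapping gene on the other strand, was 4.9 to 8.5 TPM with IL-13, a level near that of CDSN in these libraries, and its part in the CDSN values was not tested. The change was -3.12 against the untreated libraries of batch 1 and -4.77 against those of batch 2. The second value includes the gap between the untreated batches, at 64.4 to 90.2 TPM in batch 1 and 181.8 to 331.5 TPM in batch 2.

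C1orf68 was listed at 0 in 4 of 6 IL-13 libraries, and was 3.9 TPM in library 1 and 1.5 TPM in library 2. Untreated D11 libraries held 5.6 to 54.3 TPM, and the groups did not overlap. Its log2 change was -3.28 ± 0.40, with a limma adjusted p of 9.5e-08. It was -2.70 against the untreated libraries of batch 1 and -4.34 against those of batch 2.

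LORICRIN was 3.7, 0.9, 0.3, 0, 0.6 and 0.7 TPM in IL-13 libraries 1 to 6 and 2.7 to 9.5 TPM without. Only library 1 overlapped the untreated range. IL-13 changed it by -1.73 ± 0.27 on the log2 scale, with a limma adjusted p of 5.4e-06, and -2.01 without library 1. It was -1.68 against the untreated libraries of batch 1 and -1.97 against those of batch 2. At these levels, given to 1 decimal, the size of the change is coarse.

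PPL was 56.4 to 71.6 TPM (median 65.0) with IL-13 and 43.1 to 51.7 TPM (median 48.8) without, with no overlap. The log2 change was 0.56 ± 0.15 with a limma adjusted p of 0.0024. It was 0.30 (limma adjusted p of 0.083) after median-of-ratios scaling, 0.32 (limma adjusted p of 0.062) after quantile normalization and 0.43 (limma adjusted p of 0.054) with no batch term, so the call depends on the scale. Against the untreated libraries of batch 1 it was 0.45 and against those of batch 2 it was 0.41. EVPL was 102.2 to 124.9 TPM (median 115) with IL-13 and 89.4 to 106.9 TPM without, ranges that overlap. Its change of 0.22 ± 0.14 did not pass (limma adjusted p of 0.19, 95% interval -0.062 to 0.50). It was 0.26 (limma adjusted p of 0.0056) with only the 2 groups in the fit, and -0.029 after median-of-ratios scaling. For EVPL the change was 0.29 (limma adjusted p of 0.017) against untreated batch 1 and 0.12 (limma adjusted p of 0.27) against untreated batch 2. The ratio of EVPL to PPL was 1.57 to 1.98 with IL-13 and 1.88 to 2.45 without. Neither plakin was called lower with IL-13 under these settings.

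SBSN was 627.4 to 1371.1 TPM (median 868) with IL-13 and 1175.9 to 1734.4 TPM without, with only IL-13 library 1 inside the untreated range. Its change of -0.55 ± 0.60 did not pass (limma adjusted p of 0.47, 95% interval -1.78 to 0.68). With only the 2 groups in the fit it was -0.67 with a limma adjusted p of 0.0069, and -0.64 (limma adjusted p of 0.036) against untreated batch 1 and -0.86 (limma adjusted p of 0.010) against untreated batch 2. CNFN was 593.7 TPM in IL-13 library 1 and 175.1 to 253.0 TPM in the other 5, against 242.5 to 699.1 TPM without. Its change of -0.59 ± 0.52 did not pass (limma adjusted p of 0.36, 95% interval -1.66 to 0.47). It was -0.34 (limma adjusted p of 0.45) against untreated batch 1 and -1.36 (limma adjusted p of 0.011) against untreated batch 2. The last value includes the gap between the untreated batches, at 242.5 to 389.3 TPM in batch 1 and 548.9 to 699.1 TPM in batch 2. For both genes the wide D3 libraries enter the shared spread.

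Other genes of the pathway were read from lists of named genes. Small proline-rich precursors, the cross-bridging proteins of the envelope, rose in 11 of 11 tested genes from D3 to D11, led by SPRR2D at 6.52. With IL-13, 2 of 11 were higher (SPRR2F at 2.00 and SPRR3 at 1.80) and 0 lower, with a list median of -0.14. Late cornified envelope precursors rose in 14 of 14 from D3 to D11, led by LCE3E at 8.14. With IL-13, 0 of 14 were higher and 10 lower, led by LCE1A at -3.51, with a list median of -1.47. The background for these counts and those of the lists below was 33.6% of genes higher and 35.8% lower from D3 to D11. With IL-13 it was 39.2% higher and 8.49% lower. The medians of all genes were -0.024 and 0.19 in the same order.

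Of 17 other precursors tested, 16 rose from D3 to D11, led by CRCT1 at 6.83, and HRNR fell by 1.39. With IL-13, 4 were higher and 3 lower, from CRNN, the cornulin gene of esophageal epithelium, at 2.60 to KPRP at -1.73 (3 and 4 after median-of-ratios scaling). CRNN was 927.1 to 1706.8 TPM with IL-13 and 129.3 to 289.4 TPM without. Corneodesmosome genes, the setting in which CDSN acts, rose in 9 of 10 from D3 to D11, led by the inhibitor SPINK7 at 6.95. With IL-13, 1 was higher and 5 lower: the protease KLK7 changed by 1.01 and the protease KLK5 by -1.93.

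Of 8 plakins and partners, 5 rose and 2 fell from D3 to D11. With IL-13, 1 was higher and 2 lower, EPPK1 at 0.67 and desmoplakin (DSP) at -0.54, and after median-of-ratios scaling 0 were higher and 5 lower. Of 7 genes for processing of transglutaminases, 2 rose from D3 to D11, led by the inhibitor cystatin M/E (CST6) at 5.97, and 3 fell, led by PLAAT4 at -1.33. With IL-13, CST6 fell by 1.25 and LGMN, the legumain protease that CST6 inhibits, rose by 0.48. In this list 3 of 7 were higher and 1 lower, and 2 and 1 after median-of-ratios scaling. Of all genes 39.2% were higher and 8.49% lower, with a median change of 0.19. A link between CST6 and LGMN was not tested.

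Lipid envelope enzymes rose in 11 of 12 from D3 to D11, led by SDR9C7 at 4.21. With IL-13, 8 of 12 were lower, led by CYP4F22 at -2.04. Squamous regulators rose in 18 of 23 from D3 to D11, led by OVOL1 at 3.71, and 2 fell, led by TP63 at -0.55. With IL-13, 7 were higher and 6 lower, from ELF3 at 1.79 to FOSL1 at -1.11, and 5 and 11 after median-of-ratios scaling. FOSL1 is a subunit of AP-1, whose letters are in the windows of IVL, LORICRIN and SBSN printed above. It also had the largest fall of this list from monolayer to D3 and to untreated D11, where those genes were called higher. A link between FOSL1 and those genes was not tested. Of 8 suprabasal keratins, 6 rose and 2 fell from D3 to D11, from KRT16 at 3.54 to KRT13 at -2.24, and with IL-13 KRT4 changed by 5.59 and KRT10 by -1.42, within 2 higher and 1 lower.

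**Figure D5:**
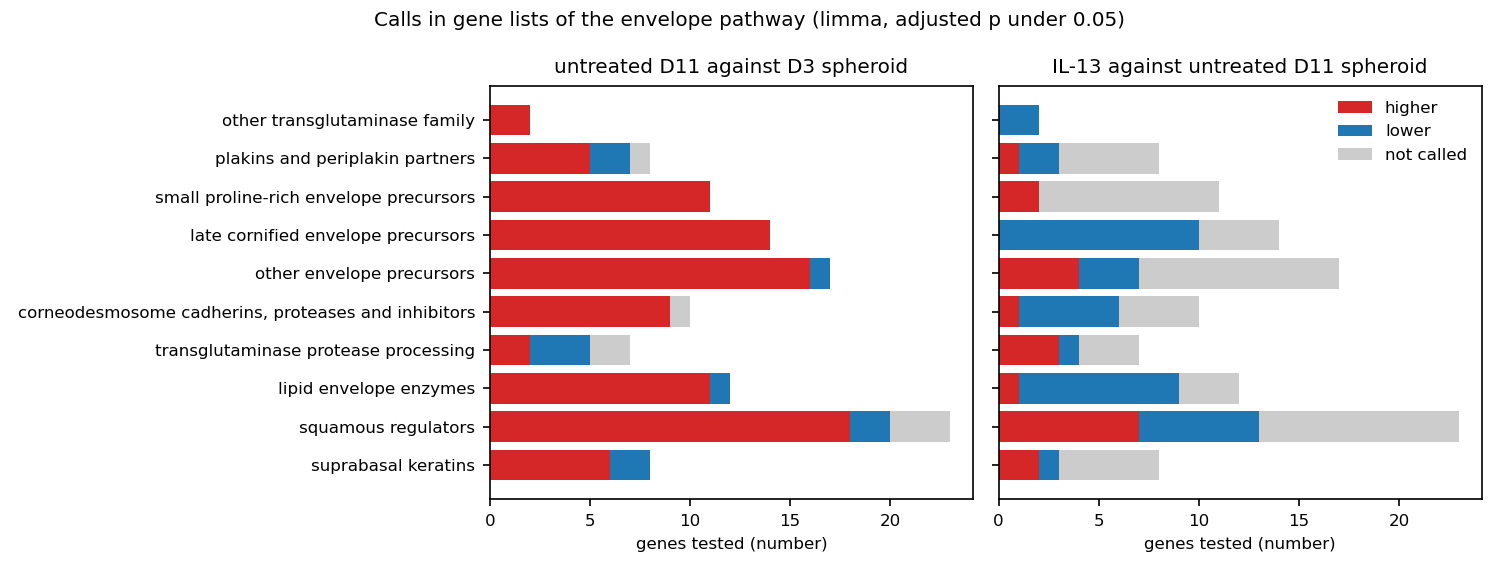
Number of genes tested in each of 10 lists of the envelope pathway that were called higher (red), lower (blue) or not called (grey) by limma at an adjusted p under 0.05, for untreated D11 against D3 on the left and IL-13 against untreated D11 on the right. From D3 to D11 all 11 small proline-rich and all 14 late cornified envelope genes are higher, and with IL-13 10 of those 14 are lower while 2 of the 11 are higher.

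Across the 32 libraries the members were not equally alike. SBSN and TGM1 had r = 0.982 on log2(TPM + 1), and SBSN and EVPL 0.981, whereas C1orf68 and TGM3 had 0.309 and C1orf68 and PPL 0.324. These values are a description over 4 groups whose libraries share a scale, and correlations within groups were not computed. The 2 genes most like each member by this measure were DSG1 and ADSS1 for IVL (0.987 for both), SLURP2 (0.998) and A2ML1 (0.997) for SBSN, and SLURP1 (0.993) and CRCT1 (0.991) for CNFN. For the enzymes they were C10orf99 (0.995) and HSPB1 (0.994) for TGM1, and PCP4L1 (0.985) and PDZK1IP1 (0.984) for TGM3. For the plakins they were KLHDC8B (0.983) and DBP (0.982) for PPL, and CDH16 (0.990) and ALDH3B2 (0.988) for EVPL. LORICRIN was most like SCNN1G (0.923) and LIPM (0.922). CDSN and C1orf68 had the same nearest gene, LCE1F (0.933 and 0.907), followed by PLA2G4D (0.930) and YOD1 (0.903).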

How the data were processed

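RNA of 32 libraries was measured. The authors deposited 1 table of TPM values, given to 1 decimal, with library sums of 999960 to 999989. Reads were placed on hg38, per the submitters' processing notes. Which aligner, quantification tool, annotation and strand setting were used is not given in the sources used here. Depth is unknown, so precision came from the spread between libraries alone, and because TPM is a share, a rise of abundant transcripts lowers all others. Of the columns, 26 were tied to 1 sample each, and the 6 IL-13 columns, numbered 1 to 6 where the samples are numbered 8 to 13, to their group only.

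The test scale was log2(TPM + 1). A gene was kept if at least 6 libraries held 1 TPM of it or more, which left 12221. They entered 1 limma fit (version 3.58.1, R 4.3.3) over all 32 libraries with an intensity trend and terms for group and batch. Each IL-13 library carried the batch 2 share of its group, 1 of 6. Benjamini-Hochberg adjustment ran over all genes tested, and 0.05 was the threshold. The batch interaction was tested in a fit of the other 3 groups. The fit was also run on simulated data with independent normal noise. Such data lack the split of the D3 libraries and the values of 0, so that run says nothing about those. Members were named whatever their result, and from each of the 10 pathway lists the largest rise and the largest fall past the threshold. The result of 1 listed gene is not reported here. The members, lists and tests were chosen with earlier results of these data known. Alternatives covered the pseudocount, the filter, scaling, the batch term, single batches, the libraries in the fit, library weights, a replicate block and single libraries left out. Same-numbered libraries of different groups were correlated as a check for pairing. Batch was left in those values, so the check cannot settle whether the numbers pair libraries. Plots used matplotlib 3.10.9 (Python 3.11.15).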

Additional observations from a re-analysis of the deposited data

Results flagged for a closer look

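In IL-13 library 1, 4 members lay far from the other 5 libraries of the group by Dixon's criterion: IVL at 184.2 TPM, LORICRIN at 3.7 TPM, CDSN at 50.7 TPM and CNFN at 593.7 TPM. The same criterion marked C1orf68 in D3 library 6, at 0.3 TPM where the other 8 libraries were listed at 0, and SBSN in monolayer library 8, at 0.4 TPM. These are 6 of 38 groups examined, and 4 of the 6 are of the same library. The criterion's rate of about 1 in 20 holds for normally distributed values. These were TPM with many values of 0, so the count cannot be set against that rate.

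The change differed between the 2 experiments in 10 of 30 tests of the batch interaction over members (limma, adjusted p under 0.05), where 45.2, 23.8 and 48.3% of all genes did so in the 3 comparisons. From monolayer to D3 the log2 change was larger in batch 2 by 1.78 for IVL, 3.33 for CDSN, 0.67 for EVPL and 2.21 for CNFN, and differed by -0.97 for PPL. From D3 to untreated D11 the difference was 1.56 for C1orf68 and -1.29 for TGM3. From monolayer to untreated D11 it was 3.30 for CDSN, 1.61 for C1orf68 and -1.05 for PPL.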

How the results depend on the processing

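Between monolayer and D3 the number of members called lower was 0 and became 1, C1orf68 in each case, with a pseudocount of 0.1 (-1.96) or 0.5 (-0.97), with mitochondrial genes removed (-0.96) and with only the 2 groups in the fit (-0.62), and ranged from 0 to 1 over single libraries left out. In that comparison CDSN was -0.91 in batch 1 alone, the opposite direction. With IL-13 the number called higher was 2 and became 1 after median-of-ratios scaling, after quantile normalization and with no batch term, PPL being the member lost each time, and EVPL was -0.029 after median-of-ratios scaling. TGM1 was also lost with a pseudocount of 0.1 (-0.77, limma adjusted p of 0.065) and with no filter on low values (-0.81, limma adjusted p of 0.054). Other settings added calls with IL-13. With only the 2 groups in the fit EVPL was called higher and SBSN lower. Against the untreated libraries of batch 1, 3 members were higher and 6 lower, and against those of batch 2 the counts were 2 and 7. That split by batch was chosen after the data were seen. With library weights CDSN was called higher at D3 (1.99, limma adjusted p of 4.2e-04). LORICRIN has no value under a filter of 5 TPM. The cause of these shifts was not tested. With the replicate block, 8 members were higher and 0 lower from monolayer to D3, and 10 were higher from D3 to untreated D11 and from monolayer to untreated D11, as without it. The deviations of same-numbered libraries from their group mean correlated at -0.44 to 0.36, -0.16 to 0.16 and -0.022 to 0.056 in these 3 comparisons. In the same order, 2 of 9, 3 of 7 and 6 of 7 of these pairs shared a batch. The IL-13 numbers match no untreated ones. Of the members' changes recomputed under all alternatives, 1224 kept their direction and their side of the threshold, 16 lost the call, 14 gained it and 2 changed direction. Unknown depth limits what the lowest members, LORICRIN, TGM3 and C1orf68, can show, since 0.1 TPM is the smallest step of the table.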
